A study of Mus musculus with 8 samples.

Results

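The cytochrome P450 genes of families 1 to 3, which hold most of the enzymes that metabolise drugs and other foreign compounds, were followed across 8 RNA sequencing libraries of whole mouse liver. Members were chosen by name alone: Cyp, a family number from 1 to 3, a single lower-case subfamily letter and a closing number, with the copy of highest sum kept where a name occurred more than once. A total of 58 of the 24545 rows of the table had such a name, and none of the 58 had a second row. The study crossed genotype with endotoxin. All mice were male C57Bl/6J, of an age the labels leave out. The 4 groups, with 2 libraries each described as biological replicates, were untreated wild type, wild type given lipopolysaccharide (LPS, an endotoxin from bacterial cell walls) at 1.5 mg/kg each day over 7 days, untreated ApoE-Cyp7a1 transgenic mice, and ApoE-Cyp7a1 transgenic mice given the same LPS course. The transgene adds Cyp7a1, whose product limits the rate at which cholesterol becomes bile acid, and is described as liver specific. No vehicle injection is named for the untreated groups.

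Cytochromes P450 are heme enzymes of the endoplasmic reticulum that insert an oxygen atom into their substrate, using electrons passed on by P450 oxidoreductase and cytochrome b5. Families 1 to 3 act on drugs, pollutants, steroids and fatty acids, and hepatocytes, above all those around the central vein, hold most of the body's supply. Their genes answer to xenobiotic receptors, AhR for family 1 and CAR and PXR for the Cyp2b, Cyp2c and Cyp3a subfamilies, and inflammation is known to lower many of them.

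Values are in FPKM, a fragment density scaled to transcript length and to the mapped fragments of the library. The 58 names held 43 distinct sets of values above 0. Of these names 37 had values of their own and 15 fell into 6 sets with identical values in every library, so that the genes within a set could not be separated: Cyp2b10 with Cyp2b9, Cyp2c29 with Cyp2c39 and Cyp2c65, Cyp2c67 with Cyp2c68, Cyp2d12 with Cyp2d9, Cyp2d10 with Cyp2d11 and Cyp2d22, and Cyp2d26 with Cyp2d34 and Cyp2d40. The other 6 names (Cyp2b19, Cyp2b23, Cyp2c66, Cyp2j11, Cyp2j13 and Cyp2w1) were listed at 0 in all 8 libraries. Such a 0 need not mean a silent gene, since albumin, the most typical hepatocyte transcript, was also listed at 0 throughout. A filter of at least 1 FPKM in at least 2 libraries left 32 of the 43 sets (41 names) for testing, among 11463 features in all. Of the 11 sets below the filter, Cyp1a1, Cyp2c55, Cyp2g1 and Cyp2s1 had the highest means (0.331, 0.331, 0.526 and 0.591 FPKM over the 8 libraries), and Cyp2b13, Cyp2j12 and Cyp2t4 were at 0 in most libraries.

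Some libraries stood apart from the rest. Cyp7a1, the gene the transgene carries, stood at 24.9 and 49.1 FPKM in untreated wild type, 19.9 and 27.9 in wild type with LPS, 64.7 and 78.5 in untreated transgenic mice and 73.5 and 70.2 in transgenic mice with LPS. Of the 12 hepatocyte markers 10 had values above 0 that were shared with no gene off the list. Their summed levels were 18752 to 29202 FPKM without LPS and 16342 to 20289 with it. Of these 10, 2 fell in wild type (median log2 change -0.72) and 1 fell and 1 rose in transgenic mice (median -0.19); the part of hepatocyte content in the P450 changes was not tested. With LPS 10 of 11 tested macrophage markers rose in each genotype, from sums of 133 to 269 FPKM to sums of 1551 to 1746, and all 7 tested neutrophil markers rose, from sums of 3.96 to 8.86 FPKM to sums of 179.8 to 357. All 7 tested B and plasma cell markers, 8 of 10 stellate cell markers and 6 of 8 endothelial markers rose in each genotype as well. In such mixed tissue fewer hepatocytes and less P450 RNA per hepatocyte cannot be told apart. A list of 7 adrenal cortex genes, added after its P450 members had been noticed, summed to 17.4 FPKM in replicate 1 of untreated wild type and 14.8 in replicate 1 of transgenic with LPS, against 0.659 to 1.16 in the other 6. Pancreatic markers summed to 1018 and 51.1 FPKM in untreated wild type and 133 and 38.5 with LPS. In transgenic mice they summed to 3802 and 772 without LPS and 93.0 and 2.34 with it. All 6 pancreatic markers fell with LPS in transgenic mice (median log2 change -6.05), and 0 passed in wild type. The part of such tissue in the P450 changes was not tested. Within transgenic mice with LPS, replicate 1 lay below replicate 2 for 30 of the 32 tested members (median log2 difference -0.75), against 53.0% of all features (median -0.02); in the other groups replicate 1 was lower for 11 to 17 of the 32.

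Cyp2e1 was the most abundant member in every library and alone made up 51.5% and 50.8% of the summed FPKM of all members in untreated wild type. Next by mean over the 8 libraries came Cyp3a11 at 1391 FPKM, the Cyp2d12/Cyp2d9 set at 916 and Cyp3a25 at 563. The lowest tested members, Cyp2a22 and Cyp1b1, had means of 0.591 and 0.753 FPKM. All members together summed to 16030 and 14938 FPKM in untreated wild type and to 9861 and 9532 with LPS, so that 62.6% of the mean was left. In transgenic mice the sums were 12960 and 13529 without LPS and 6229 and 10249.8 with it, and 62.2% was left. The share held by Cyp2e1 was lower with LPS, at 43.5% and 45.9% in wild type and 39.7% and 38.5% in transgenic mice, against 49.3% and 48.0% in untreated transgenic mice.

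**Figure D1:**
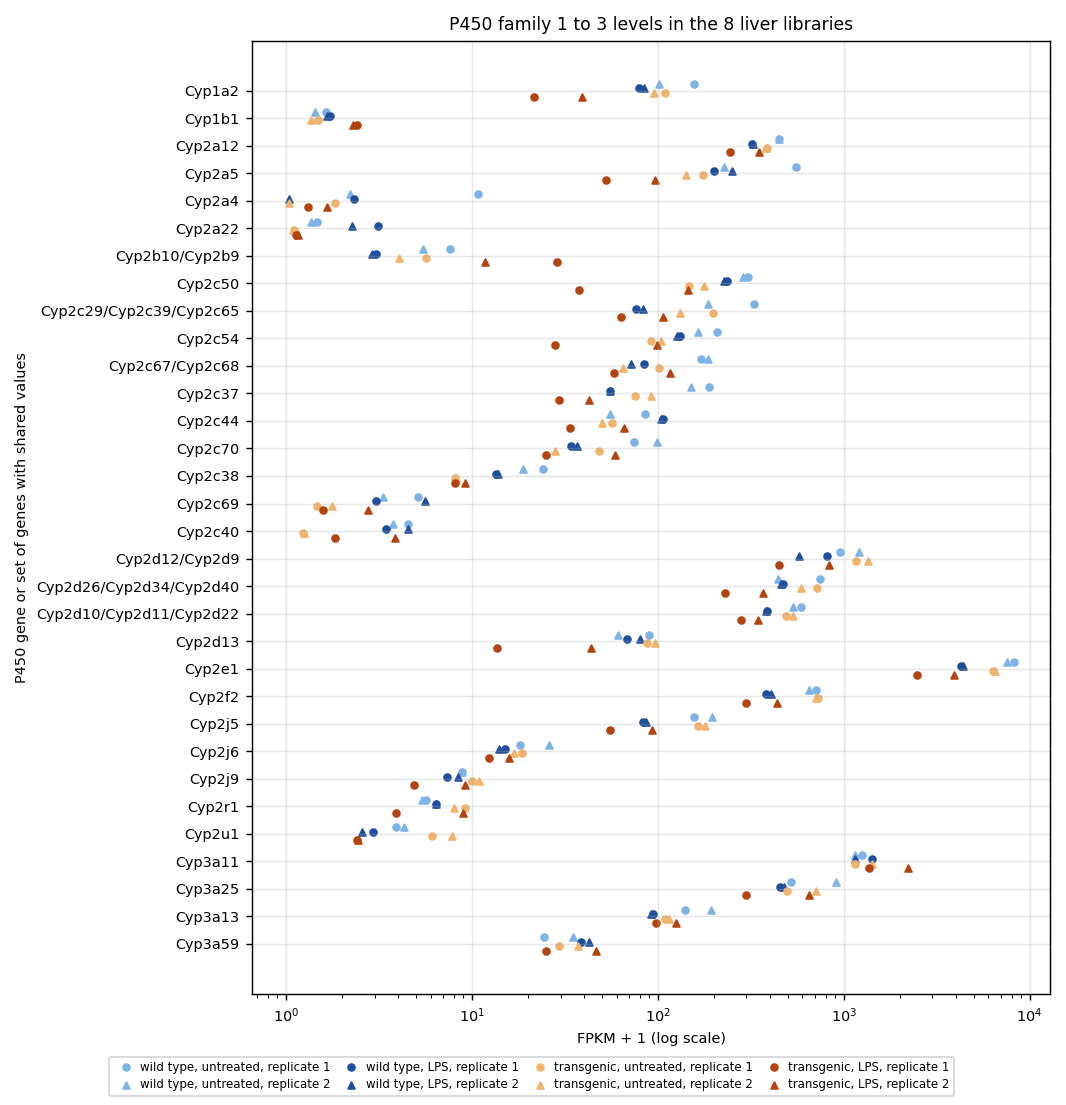
Level of each of the 32 tested P450 genes or sets in the 8 libraries, as FPKM + 1 on a log axis, grouped by subfamily; circles are replicate 1, triangles replicate 2. Blue marks wild type and orange transgenic mice, with the darker shade for LPS; Cyp2e1 lies farthest right, from 2472 to 8258 FPKM.

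More members fell than rose with LPS in both genotypes. In wild type 8 of the 32 tested members fell and 1 rose, where 21.6% of all features passed the same test (5.41% lower and 16.2% higher). In transgenic mice 9 fell and 3 rose, where 26.5% of all features passed (10.5% lower and 16% higher). Of the members 25% and 28.1% thus fell, and 3.12% and 9.38% rose. Among those that rose, Cyp2a22 in wild type and Cyp1b1 in transgenic mice reached 1 FPKM only in the LPS group concerned. They passed the filter solely through the group where they are high. The median change over the members was -0.57 on the log2(FPKM + 1) scale in wild type and -0.49 in transgenic mice, against -0.05 and -0.04 over all features; 26 and 21 of the 32 members lay below 0. The transgenic values rested on replicate 1 of the LPS group: without it 16 of the 32 members lay below 0 and their median was -0.06, against -0.04 over all features, while without replicate 2 there were 27 and the median was -0.935. Within wild type both LPS libraries lay below both untreated ones for 20 of the 32 members and above them for 5, against 34% and 30.5% of all features. Within transgenic mice they lay below for 16 and above for 4, against 36.2% and 31.8%. All 4 LPS libraries lay below all 4 untreated ones for 11 of the 32 members (34.4%), against 16.8% of all features, and above them for 1 member, Cyp1b1 (3.12%), against 20.6%. These calls used limma on log2(FPKM + 1) with Benjamini-Hochberg adjustment over all 11463 features and a threshold of 0.05; on this scale the changes of low genes are understated. Without the 2 libraries that held adrenal genes, an alternative chosen after seeing the data, 18 members passed in wild type, among them all 9 above, and 42.8% of all features did; in transgenic mice 14 passed, among them all 12 above. Without either wild-type library given LPS 2 members passed in wild type, and without either transgenic one 14 did. In transgenic mice 6 passed without replicate 1 of the untreated group and 2 without its replicate 2. Rescaling every library to the same sum raised the median change of all features by 0.23 in wild type and 0.20 in transgenic mice; 22 and 19 members then lay below 0. Over all features 1861 rose and 620 fell in wild type and 1834 and 1200 in transgenic mice, against 2523 and 134, and 2311 and 640, after rescaling, and 1459 and 994, and 1510 and 1296, after quantile normalisation.

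**Figure D2:**
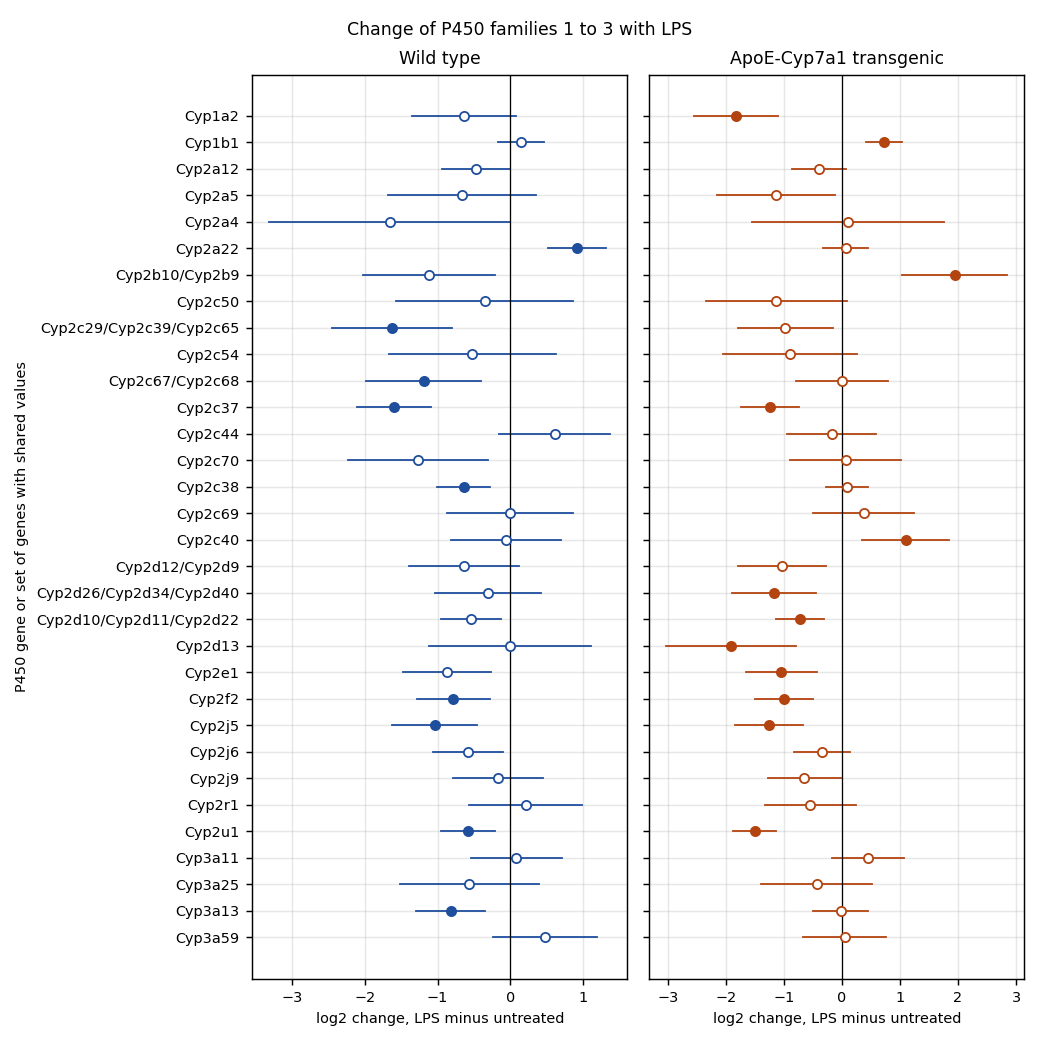
Log2 change with LPS of the 32 tested P450 genes or sets, wild type at left and transgenic mice at right; points are limma estimates on log2(FPKM + 1), bars their 95% intervals, and filled points passed (adjusted p under 0.05). Filled points number 9 in wild type and 12 in transgenic mice, with 1 and 3 of them above 0.

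Cyp2e1 oxidises ethanol, acetaminophen and other small molecules in pericentral hepatocytes. Its gene spans chr7:140763739-140774987 on the plus strand (GRCm38, GENCODE). The stretch of 250 bases before the RefSeq start site (chr7:140763569-140763818, plus strand, GRCm38.p6) is shown because this promoter serves the most abundant member; capitals mark the letters TATAAA, which ended 26 bases before the start.
Cyp2e1: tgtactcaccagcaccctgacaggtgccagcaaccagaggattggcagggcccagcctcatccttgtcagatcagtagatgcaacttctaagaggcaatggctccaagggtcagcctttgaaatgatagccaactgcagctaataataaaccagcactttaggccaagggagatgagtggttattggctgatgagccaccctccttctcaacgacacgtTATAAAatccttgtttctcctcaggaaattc
Cyp2e1 stood at 8258 and 7594 FPKM in untreated wild type, 4286 and 4379 with LPS, 6390 and 6490 in untreated transgenic mice and 2472 and 3943 in transgenic mice with LPS. Every LPS library lay below every untreated one. The change in transgenic mice passed (log2 -1.04, SE 0.26, limma adjusted p = 0.024). In wild type the difference was -0.87 (SE 0.26) with an adjusted p of 0.0509, and the difference between the genotypes in the LPS change was -0.17 (95% interval -1.03 to 0.68). Leaving out either transgenic library with LPS brought the wild-type difference past the threshold, while leaving out any of 4 libraries (wild type with LPS or untreated transgenic, either replicate) took the transgenic change out of it.

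Cyp2f2 and Cyp2j5 fell in both genotypes. Cyp2f2, the enzyme that activates naphthalene and, unlike Cyp2e1, a periportal gene in liver, stood at 705 and 649 FPKM in untreated wild type, 380.1 and 406 with LPS, 731 and 707 in untreated transgenic mice and 297 and 437 in transgenic mice with LPS. The groups did not overlap, and Cyp2f2 fell in wild type by 0.78 (SE 0.21, adjusted p = 0.0367) and in transgenic mice by 0.99 (SE 0.21, adjusted p = 0.0136) on the log2 scale; the wild-type call was lost in 9 of 17 alternatives, among them the analyses without a library of either wild-type group. Cyp2j5, which turns arachidonic acid into epoxides, stood at 155 and 194 FPKM, 82.2 and 85.4 with LPS, 164 and 179 in untreated transgenic mice and 54.4 and 92.1 in transgenic mice with LPS. It fell by 1.04 in wild type (SE 0.25, adjusted p = 0.0234) and by 1.26 in transgenic mice (SE 0.25, adjusted p = 0.0104). The wild-type call was lost in 4 of 17 alternatives and the transgenic one in 1. The summed Cyp2j level, mostly Cyp2j5, was 204 ± 32.9 FPKM (SD, n = 2) in untreated wild type and 104 ± 2.23 with LPS, and 198 ± 9.42 and 92.4 ± 32.2 in transgenic mice. Cyp2j6 and Cyp2j9, the other 2 tested Cyp2j genes, also had values below 0 in both genotypes (-0.58 and -0.17 in wild type, -0.35 and -0.65 in transgenic mice) without passing.

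The Cyp2c subfamily, fatty acid epoxygenases and hydroxylases encoded in a cluster on chromosome 19, held 4 of the 8 falls in wild type. Of its 10 tested members 4 fell in wild type and none rose, with a median of -0.58; in transgenic mice 1 fell and 1 rose, with a median of -0.09 that turned positive after rescaling (0.13) and quantile normalisation (0.03). Without replicate 1 of transgenic mice with LPS this median was 0.24, with 3 of 10 members below 0, and without replicate 2 it was -0.61, with 9 of 10 below 0. The subfamily summed to 1265 ± 166 FPKM (SD, n = 2) in untreated wild type, 728 ± 8.90 with LPS, 686 ± 51.7 in untreated transgenic mice and 459 ± 256 in transgenic mice with LPS. Untreated transgenic livers (723 and 649.7) thus overlapped wild-type livers given LPS (734 and 721). Cyp2c37 (chr19:39992424-40012243, plus strand) stood at 187 and 151 FPKM in untreated wild type, 54.7 and 54.6 with LPS, 74.9 and 90.8 in untreated transgenic mice and 28.4 and 41.5 in transgenic mice with LPS. Its groups did not overlap within either genotype. Cyp2c37 fell by 1.60 in wild type (SE 0.22, adjusted p = 0.00164) and by 1.24 in transgenic mice (SE 0.22, adjusted p = 0.006), and the wild-type call held in all 17 alternative analyses.

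Both sets of Cyp2c genes with shared values fell in wild type. The set of Cyp2c29, a CAR-induced epoxygenase, with Cyp2c39 and Cyp2c65 stood at 327 and 185 FPKM in untreated wild type and 75.4 and 82.8 with LPS (log2 -1.63, SE 0.35, adjusted p = 0.0144); in transgenic mice it stood at 198 and 130.3 without and 62.4 and 106 with LPS, a difference of -0.97 that did not pass (adjusted p = 0.0797). Cyp2c67/Cyp2c68 stood at 169 and 185 FPKM and then 83.5 and 70.7 (log2 -1.19, SE 0.34, adjusted p = 0.0432), a call lost in 9 of 17 alternatives; its transgenic difference was 0.00 (95% interval -0.79 to 0.80). Cyp2c50, the Cyp2c gene of highest mean, stood at 303 and 287 FPKM and then 234 and 227 in wild type, and at 146 and 176 and then 36.9 and 144 in transgenic mice with LPS; it passed in neither, and the 2 transgenic libraries with LPS lay far apart. Cyp2c40, low throughout, rose in transgenic mice from 0.235 and 0.253 FPKM to 0.834 and 2.86 (log2 1.096, SE 0.32, adjusted p = 0.0418). That call was lost in 10 of 16 alternatives, and the change was 0.56 without replicate 2 of transgenic mice with LPS. For the longest Cyp2c40 transcript 72.1% of the 50-base windows also occur in another gene.

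Cyp2c54, Cyp2c69, Cyp2c70 and Cyp2c44 passed in neither genotype with LPS and were chosen after their values were seen. Cyp2c54 stood at 208 and 164 FPKM in untreated wild type, 130.5 and 126 with LPS, 91.4 and 103 in untreated transgenic mice and 27.1 and 97.8 in transgenic mice with LPS, so that all 4 transgenic values lay below the wild-type ones. Cyp2c69 did the same at a low level, with 4.14 and 2.34, 2.04 and 4.62, 0.471 and 0.765, and 0.580 and 1.77 FPKM in that order. Cyp2c69 passed the filter through the wild-type libraries, the side on which it is high. Cyp2c70, which makes the muricholic acids of rodent bile, stood at 73.1 and 97.5 FPKM in untreated wild type, above all 6 others, which lay between 24.04 and 58.0. Cyp2c44, an epoxygenase, was the 1 Cyp2c gene whose wild-type libraries were both higher with LPS (105 and 103 FPKM, against 84.4 and 54.5), a difference of 0.61 that did not pass (adjusted p = 0.224).

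The Cyp2d subfamily summed to 2307 ± 99.9 FPKM (SD, n = 2) in untreated wild type, 1617 ± 175 with LPS, 2512 ± 79.5 in untreated transgenic mice and 1278 ± 434 in transgenic mice with LPS. None of its 4 tested members passed in wild type and 3 fell in transgenic mice. Cyp2d13 had the largest fall: it stood at 89.2 and 60.4 FPKM in untreated wild type, 67.1 and 79.4 with LPS, 86.4 and 95.1 in untreated transgenic mice, and 12.6 and 42.8 in transgenic mice with LPS (log2 -1.91, SE 0.48, adjusted p = 0.0244). Without replicate 1 of transgenic mice with LPS this change was -1.07 and without replicate 2 it was -2.75, and the call was lost in 4 of 17 alternatives. The wild-type groups overlapped (-0.01, 95% interval -1.12 to 1.11). The set of Cyp2d26, Cyp2d34 and Cyp2d40 stood at 749 and 442 FPKM in untreated wild type, 471 and 457 with LPS, 719 and 592 in untreated transgenic mice and 229.6 and 366 in transgenic mice with LPS. The set of Cyp2d10, Cyp2d11 and Cyp2d22 stood at 588 and 532, 387 and 379, 489.7 and 535, and 279.8 and 346 FPKM in the same order. In both sets the transgenic libraries with LPS were the lowest 2 of the 8. The first set fell by 1.17 in transgenic mice (SE 0.31, adjusted p = 0.0298) and the second by 0.72 (SE 0.18, adjusted p = 0.0236); both lie outside the naming rule and were chosen after their values were seen. Each call was lost in 7 of 17 alternatives. These included quantile normalisation and leaving out any library of wild type with LPS or of untreated transgenic mice. Both were also lost without replicate 1 of transgenic mice with LPS, where the changes were -0.83 and -0.56. Cyp2d12/Cyp2d9, a set that includes the male-typical testosterone hydroxylase Cyp2d9, had the highest Cyp2d mean and stood at 952 and 1202, 815 and 577, 1160.4 and 1346, and 449 and 829.7 FPKM in the same order of groups; neither LPS difference passed (-0.64 and -1.03, adjusted p = 0.199 and 0.0508).

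**Figure D3:**
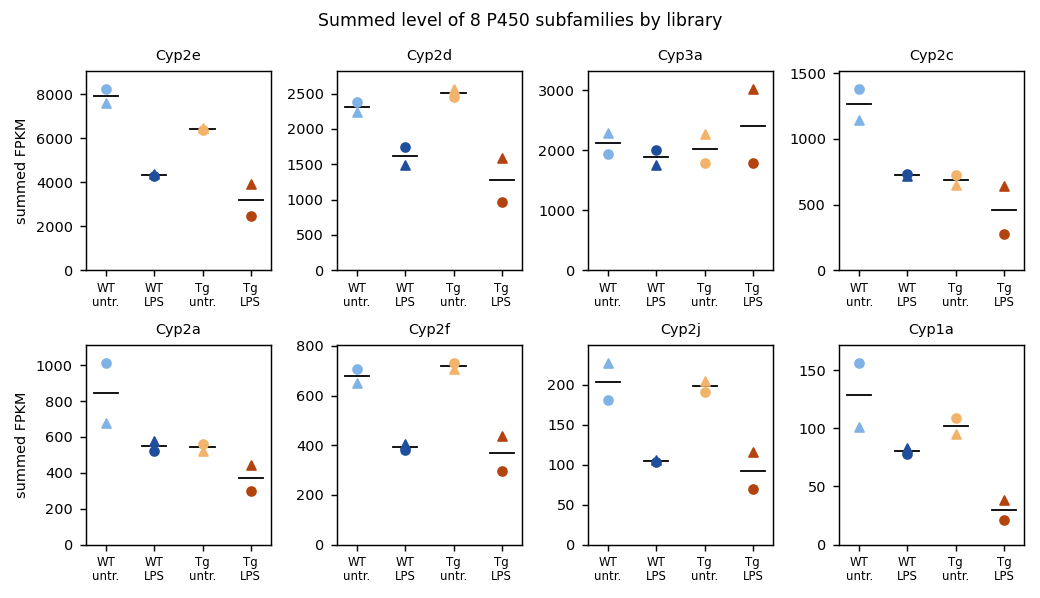
Summed FPKM of the 8 most abundant P450 subfamilies in each library; WT is wild type, Tg transgenic and untr. untreated, circles are replicate 1, triangles replicate 2, and lines group means. LPS left 54.7% and 49.8% of Cyp2e (wild type, transgenic), 58.0% and 51.1% of Cyp2f and 51.3% and 46.7% of Cyp2j, but 88.8% and 119% of Cyp3a.

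In family 1, the AhR-driven enzymes of aromatic compounds, 1 of the 2 tested members fell and 1 rose in transgenic mice. Cyp1a2, which metabolises caffeine and lies pericentrally, stood at 156 and 101 FPKM in untreated wild type, 77.9 and 83.0 with LPS, 109 and 95.02 in untreated transgenic mice and 20.5 and 38.1 in transgenic mice with LPS. The last 2 values were the lowest of all 8. Cyp1a2 fell in transgenic mice by 1.82 (SE 0.31, adjusted p = 0.00512), a call kept in all 17 alternatives; its wild-type difference was -0.63 (95% interval -1.35 to 0.08). Cyp1b1, in normal liver typical of stellate cells more than of hepatocytes, stood at most at 0.728 FPKM in the 6 other libraries and at 1.41 and 1.30 FPKM in transgenic mice with LPS, where it rose by 0.72 (SE 0.14, adjusted p = 0.00786). Only these transgenic libraries reached 1 FPKM, so Cyp1b1 passed the filter solely through the group in which it is called higher. Its lowest LPS value, 0.660 FPKM in wild type, lay close to its highest untreated one, 0.645. The stellate cell list rose in both genotypes, from sums of 161 to 194 FPKM to sums of 374 to 506; its part in the Cyp1b1 rise was not tested. Of the AhR targets outside the family, Nqo1 fell in both genotypes (-0.69 and -0.76, adjusted p = 0.0393 and 0.0245) and the other tested one, Tiparp, did not pass in either.

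Of the subfamilies with a single gene, Cyp2u1, a hydroxylase of long-chain fatty acids encoded on chromosome 3, fell in both genotypes. It stood at 2.93 and 3.31 FPKM in untreated wild type, 1.95 and 1.57 with LPS, 5.11 and 6.78 in untreated transgenic mice and 1.41 and 1.45 in transgenic mice with LPS. It fell in wild type by 0.58 (SE 0.16, adjusted p = 0.0382) and in transgenic mice by 1.50 (SE 0.16, adjusted p = 0.000705); the second call held in all 17 alternatives and the first was lost in 7. Cyp2r1, which hydroxylates vitamin D, stood at 4.66 and 4.42, 5.38 and 5.44, 8.22 and 6.97, and 2.89 and 7.91 FPKM in the same order, and passed in neither genotype. Cyp2g1, an olfactory enzyme, and Cyp2s1, an epithelial one, were too low to test: Cyp2s1 reached 2.03 FPKM in replicate 1 of transgenic mice with LPS and was at most 0.878 elsewhere, and Cyp2g1 was at most 1.18. Cyp2t4 was at most 0.16 FPKM and was listed at 0 in 6 libraries.

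The Cyp2a subfamily on chromosome 7 summed to 845 ± 236 FPKM (SD, n = 2) in untreated wild type, 549.9 ± 36.4 with LPS, 541 ± 26.6 in untreated transgenic mice and 371 ± 106 in transgenic mice with LPS. Cyp2a12, a bile acid and steroid hydroxylase and the subfamily's highest gene, stood at 446 and 449, 321 and 324, 386 and 382, and 244 and 349.9 FPKM, with every LPS library below every untreated one and no call in either genotype (-0.47 and -0.39, adjusted p = 0.137 and 0.187). Cyp2a22 was the 1 member that rose in wild type, from 0.477 and 0.361 FPKM to 2.13 and 1.28 (log2 0.91, SE 0.17, adjusted p = 0.007), while it stayed between 0.0958 and 0.158 FPKM in all 4 transgenic libraries. Only the wild-type libraries with LPS reached 1 FPKM, so Cyp2a22 passed the filter solely through the group in which it is called higher. Cyp2a5, the coumarin and nicotine hydroxylase, and Cyp2a4, a female-typical steroid hydroxylase, are described because their promoters are nearly the same; both were chosen after their values were seen. The 250 bases before their start sites (chr7:26306942-26307191, plus strand, and chr7:26835089-26835338, plus strand, RefSeq, GRCm38.p6) were 97.6% identical when aligned; capitals mark TTGCATAA, a match to TTNNGCAA on the other strand, and TATAAA.
Cyp2a4: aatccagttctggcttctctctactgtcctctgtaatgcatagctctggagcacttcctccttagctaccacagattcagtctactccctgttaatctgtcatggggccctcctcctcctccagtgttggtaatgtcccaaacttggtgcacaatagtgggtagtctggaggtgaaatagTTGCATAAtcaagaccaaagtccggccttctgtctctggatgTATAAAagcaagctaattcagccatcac
Cyp2a5: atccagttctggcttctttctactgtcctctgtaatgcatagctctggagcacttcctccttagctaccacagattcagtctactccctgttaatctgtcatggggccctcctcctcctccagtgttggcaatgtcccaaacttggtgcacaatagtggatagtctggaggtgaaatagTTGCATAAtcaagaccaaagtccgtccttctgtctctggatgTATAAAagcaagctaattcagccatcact
Despite this likeness Cyp2a5 stood at 556 and 227 FPKM in untreated wild type and Cyp2a4 at 9.84 and 1.20. Cyp2a5 then stood at 199.5 and 250.04 with LPS, 173 and 140.1 in untreated transgenic mice and 51.6 and 95.2 in transgenic mice with LPS; neither LPS difference passed (-0.67 and -1.14, adjusted p = 0.311 and 0.0947). Of the 50-base windows of their longest transcripts, 38.0% for Cyp2a4 and 40.8% for Cyp2a5 occur in another gene, so reads could be divided between them wrongly.

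The CAR and PXR targets included falls and a rise. Of the 6 tested members on this list (9 names) 3 fell in wild type, where the median was -0.97, and 1 rose and 1 fell in transgenic mice, where it was -0.23. Cyp2b10, the classic gene of phenobarbital induction through CAR, shares its values with Cyp2b9, a female-typical gene, so that the count of reads from each is not known. The set stood at 6.61 and 4.49 FPKM in untreated wild type, 2.03 and 1.92 with LPS, 4.67 and 3.04 in untreated transgenic mice and 27.6 and 10.8 in transgenic mice with LPS. Both transgenic libraries with LPS thus lay above all 6 others, and both wild-type libraries with LPS lay below them. The set rose in transgenic mice by 1.94 (SE 0.39, adjusted p = 0.0107); in wild type the difference was -1.12 (95% interval -2.03 to -0.21, adjusted p = 0.0822). The difference between the 2 LPS changes was 3.06 (SE 0.55, 95% interval 1.77 to 4.34), the largest among the members, with an adjusted p of 0.285. It passed without replicate 2 of transgenic mice with LPS and without the 2 libraries that held adrenal genes, and in no other alternative.

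The promoters of Cyp2b10 (chr7:25897408-25897657, plus strand) and Cyp2b9 (chr7:26173159-26173408, plus strand), from RefSeq (GRCm38.p6), are shown because a single value stands for both genes. Capitals mark GCGTG on either strand (CACGC on the other) and TTGCATAA in Cyp2b10, and TTGCCAAA and AGGTCA in Cyp2b9.
Cyp2b10: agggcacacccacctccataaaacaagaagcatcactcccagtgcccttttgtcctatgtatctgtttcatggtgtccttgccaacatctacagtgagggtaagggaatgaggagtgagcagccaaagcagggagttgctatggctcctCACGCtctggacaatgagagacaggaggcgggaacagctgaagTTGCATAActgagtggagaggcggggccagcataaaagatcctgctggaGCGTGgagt
Cyp2b9: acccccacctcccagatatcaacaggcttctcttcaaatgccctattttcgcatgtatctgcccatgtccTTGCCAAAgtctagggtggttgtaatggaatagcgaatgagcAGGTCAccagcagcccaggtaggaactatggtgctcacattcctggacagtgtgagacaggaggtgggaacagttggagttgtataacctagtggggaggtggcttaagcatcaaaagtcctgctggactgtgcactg
The pair was 70.0% identical, and no motif searched matched at the same place in both. Cyp2b13, whose 250 bases were 99.2% identical to those of Cyp2b9, lies between these genes on chromosome 7 and was listed at 0 in 7 libraries and at 0.037 FPKM in replicate 2 of transgenic mice with LPS. Of the 50-base windows of the Cyp2b10 and Cyp2b9 transcripts, 9.70% and 11.2% occur in another gene, with Cyp2b13 sharing the most in both cases.

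Cyp3a11, the main drug-metabolising P450 of the Cyp3a subfamily and the standard PXR target of mouse liver, did not pass in either genotype. It stood at 1261 and 1153 FPKM in untreated wild type, 1421 and 1147 with LPS, 1149 and 1415 in untreated transgenic mice and 1373 and 2206 in transgenic mice with LPS. The groups overlapped in both genotypes, with differences of 0.08 (95% interval -0.54 to 0.71) and 0.45 (95% interval -0.18 to 1.08); without the 2 libraries that held adrenal genes it passed in transgenic mice. Its promoter (chr5:145879855-145880104, minus strand, RefSeq, GRCm38.p6) is shown beside that of Cyp2e1 because Cyp2e1 fell in transgenic mice and Cyp3a11 did not; capitals mark the nuclear receptor half-site AGGTCA, 162 to 157 bases before the start, and a TATAAA far from it.
Cyp3a11: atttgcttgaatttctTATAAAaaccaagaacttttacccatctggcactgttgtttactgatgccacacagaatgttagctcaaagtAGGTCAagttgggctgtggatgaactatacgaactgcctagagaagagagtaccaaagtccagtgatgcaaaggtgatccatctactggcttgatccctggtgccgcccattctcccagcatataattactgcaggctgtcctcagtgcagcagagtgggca
Per 100 FPKM of Cyp2e1 there were 15.3 and 15.2 FPKM of Cyp3a11 in untreated wild type, 33.2 and 26.2 with LPS, 18.0 and 21.8 in untreated transgenic mice and 55.6 and 55.95 in transgenic mice with LPS. This ratio, which does not depend on the scaling of a library, was chosen after its values were seen and was not tested; all 4 LPS libraries lay above all 4 untreated ones. Cyp3a13 was the 1 Cyp3a gene that fell, in wild type only by the test, from 139.6 and 192 FPKM to 93.8 and 90.6 (log2 -0.82, SE 0.20, adjusted p = 0.0254). That call was lost in 7 of 17 alternatives, among them quantile normalisation and rescaling. In transgenic mice Cyp3a13 stood at 108 and 114 and then 96.9 and 124 (-0.02, 95% interval -0.49 to 0.45). The difference between genotypes in its LPS change was 0.80 (SE 0.29, adjusted p = 0.437). Cyp3a25 stood at 517.5 and 912 FPKM in untreated wild type, 451 and 477 with LPS, 495 and 709 in untreated transgenic mice and 295 and 647 in transgenic mice with LPS, and Cyp3a59, whose promoter was 94.8% identical to that of Cyp3a25, at 23.5 and 34.1, 37.8 and 41.8, 28.6 and 36.025, and 24.04 and 45.6 FPKM. Neither passed, and wild-type values were lower with LPS for Cyp3a25 and higher for Cyp3a59. Cyp3a13, Cyp3a25 and Cyp3a59 lie outside the naming rule and were chosen after their values were seen.

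**Figure D4:**
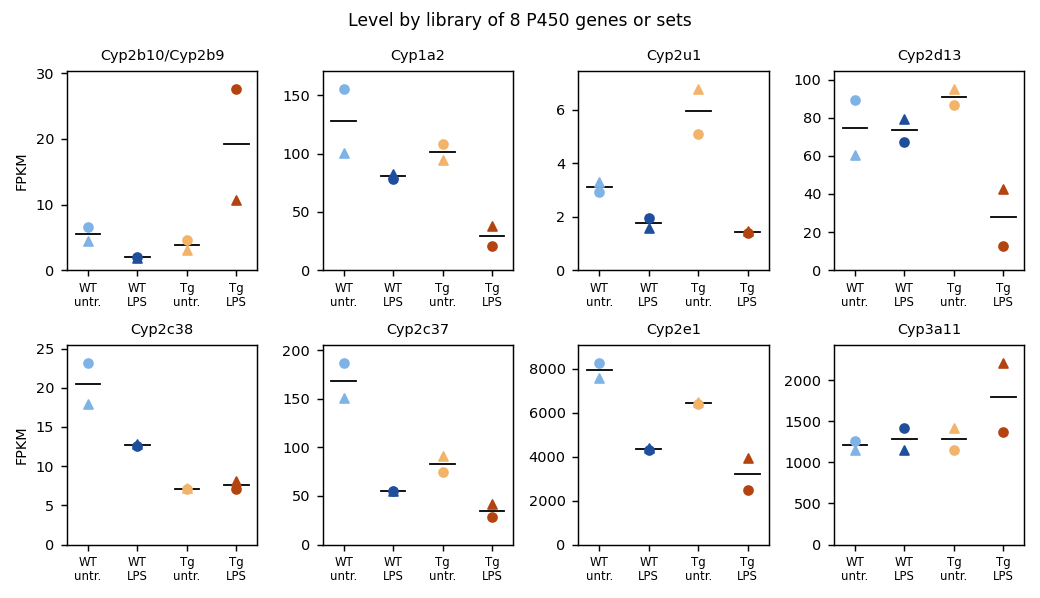
FPKM by library for 8 P450 genes or sets; WT is wild type, Tg transgenic and untr. untreated, circles are replicate 1, triangles replicate 2, and lines group means. Cyp2b10/Cyp2b9 reaches 27.6 and 10.8 FPKM in transgenic mice with LPS against at most 6.61 elsewhere, and Cyp2c38 lies between 7.12 and 8.17 in all transgenic libraries.

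The genotype moved 1 member past the test, and the members with all 4 transgenic libraries below all 4 wild-type ones were Cyp2c and Cyp2a genes. Between untreated groups 1 of the 32 members fell, Cyp2c38, among 7 features in all (0.0611%; 0.0349% lower and 0.0262% higher), and 9 more had an unadjusted p under 0.05 (8 lower and 1 higher), where 631 of the 11463 features did in all. All 10 tested Cyp2c members lay lower in untreated transgenic mice than in untreated wild type, with a median of -1.07 and a range of -1.72 to -0.36, against a median of 0.00 over all features. The comparison shares its 2 untreated wild-type libraries with the LPS comparison in wild type. The 10 stayed below 0 under both other scalings of the libraries. Of the 10, Cyp2c40 and Cyp2c69 passed the filter through wild-type libraries, where they are high. In transgenic mice both reached 1 FPKM only in replicate 2 with LPS. Cyp2a4, given next, reached 1 FPKM only in wild-type libraries. Larger in size than that of Cyp2c38, but not passing, were the differences of -1.82 for Cyp2a4 (adjusted p = 0.843) and -1.72 for Cyp2c40 (adjusted p = 0.241). With LPS, 0 of the 32 members and 0% of all features passed, with 12 members at an unadjusted p under 0.05, of which 10 were lower, and 1402 of the 11463 features. Of the Cyp2c members 7 then lay below 0 and 3 above, with a median of -0.66 that was -0.39 without replicate 1 and -1.01 without replicate 2 of transgenic mice with LPS. Averaged over both treatments Cyp2c38 passed again (log2 -1.03, SE 0.11, adjusted p = 0.0426), with 16 features in all (0.14%; 0.0698% in each direction). Within untreated mice both transgenic libraries lay below both wild-type ones for 14 members and above for 4, against 14.2% and 15.4% of all features. With LPS they lay below for 14 and above for 3, against 30% and 22%. All 4 transgenic libraries lay below all 4 wild-type ones for 6 of the 32 members (18.8%), against 0.916% of all features: Cyp2a22, Cyp2a5, Cyp2c38, Cyp2c50, Cyp2c54 and Cyp2c69. Of these 6, Cyp2a22 passed the filter only through the wild-type libraries with LPS, and Cyp2c69 through wild-type libraries of both treatments. None lay above in all 4, against 0.829% of all features.

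**Figure D5:**
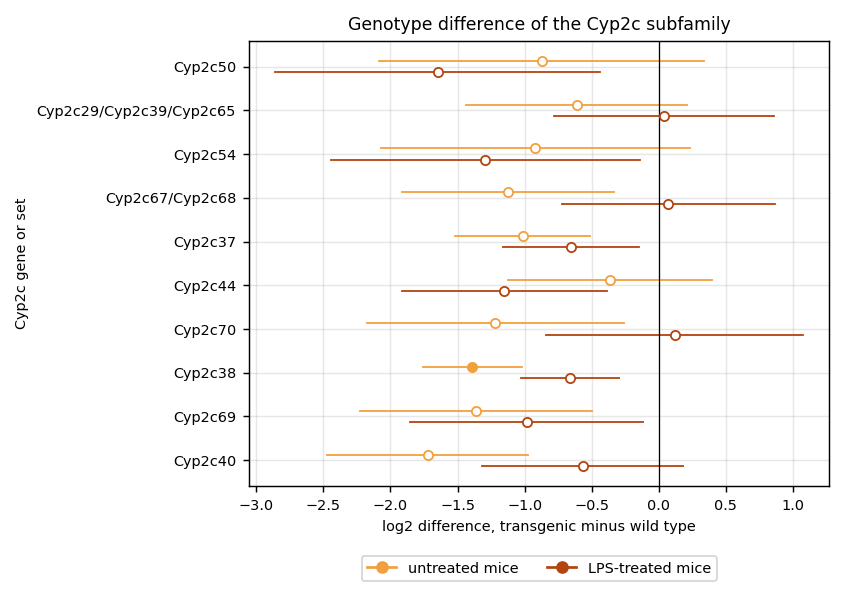
Log2 difference between transgenic and wild-type mice for the 10 tested Cyp2c genes or sets, without LPS (light) and with LPS (dark); points are limma estimates on log2(FPKM + 1) and bars their 95% intervals. All 10 light points lie below 0, and the 1 filled point, Cyp2c38 at -1.39, passed (adjusted p under 0.05).

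Cyp2c38, an arachidonic acid epoxygenase that is female-typical in mouse liver, lies at chr19:39389556-39463075 on the minus strand (GRCm38, GENCODE), between Cyp2c29 and Cyp2c39, which are read from the plus strand. It stood at 23.2 and 17.9 FPKM in untreated wild type, 12.6 and 12.8 with LPS, 7.12 and 7.18 in untreated transgenic mice and 7.14 and 8.17 in transgenic mice with LPS. The transgenic values lay within about 1 FPKM of each other and below all wild-type values. Its untreated difference was -1.39 (SE 0.16, adjusted p = 0.0485), and LPS lowered it in wild type by 0.64 on the log2 scale (SE 0.16, adjusted p = 0.0247), while the transgenic difference with LPS was 0.08 (95% interval -0.28 to 0.45). The difference between these 2 LPS changes did not pass (0.73, SE 0.22, adjusted p = 0.418). The wild-type LPS call was lost in 6 of 17 alternatives. The genotype call was lost in 8 of 17 alternatives, among them 5 of the 8 analyses without a single library, where its value ran from -1.57 to -1.21. The promoter (chr19:39463076-39463325, minus strand, RefSeq, GRCm38.p6) is shown because this was the only member whose genotype difference passed; capitals mark TATAAA, which ended 26 bases before the start.
Cyp2c38: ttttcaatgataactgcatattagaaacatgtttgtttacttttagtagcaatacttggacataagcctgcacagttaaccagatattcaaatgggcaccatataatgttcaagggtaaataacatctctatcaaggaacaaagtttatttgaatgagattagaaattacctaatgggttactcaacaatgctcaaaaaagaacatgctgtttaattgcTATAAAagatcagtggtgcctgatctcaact
Aligned promoters of Cyp2c38 and its neighbours were 75.8% identical with Cyp2c39 and 68.8% with Cyp2c29. Of the 50-base windows of the Cyp2c38 transcript 7.45% occur in another gene.

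Among the female-typical members, which include Cyp2c38, the direction with genotype was the same without LPS. All 6 tested features of that list (10 names) lay below 0 between untreated groups, with a median of -1.38. Of these, Cyp2a4 reached 1 FPKM only in wild-type libraries. Cyp2c40 and Cyp2c69 reached it in transgenic mice only in replicate 2 with LPS. These features thus passed the filter through the wild-type side, where they are high. Of the 6, all but Cyp2b10/Cyp2b9 are Cyp2c or Cyp2a members: Cyp2c38, Cyp2c40, Cyp2c69, the set that holds Cyp2c39, and Cyp2a4. They are thus counted among the 10 tested Cyp2c and 4 tested Cyp2a members, all of which lay below 0 there. The direction was therefore not particular to the female-typical list. Among the Cyp2a members Cyp2a22 also passed the filter only through wild-type libraries, those with LPS. With LPS 4 of the 6 lay below 0 and 2 above, among them Cyp2b10/Cyp2b9 at 2.63. The values of the list summed to 142 to 374 FPKM in untreated livers, nearly all from the set that holds Cyp2c39 together with Cyp2c29.

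No member passed the test of a different LPS response between genotypes, where 0.00872% of all features (1 feature) did; 10 of the 32 members had an unadjusted p under 0.05, as did 1189 of the 11463 features. After Cyp2b10/Cyp2b9, the largest values were -1.90 for Cyp2d13 (SE 0.68, adjusted p = 0.437), 1.76 for Cyp2a4 (SE 1.00, adjusted p = 0.572) and 1.33 for Cyp2c70 (SE 0.58, adjusted p = 0.488). Members past the test in 1 genotype and not in the other are therefore not shown to differ between genotypes. Without replicate 2 of transgenic mice with LPS, which leaves the lower replicate alone and assumes that it varies like the other groups, 4 members passed (Cyp2b10/Cyp2b9, Cyp2c50, Cyp2d13 and Cyp2r1) with 2.43% of all features, and 8 passed in the comparison of genotypes under LPS with 3.71% of all features. Without replicate 1 in its place, 0 members passed in either.

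Of 14 tested genes for electron donors, heme synthesis and heme breakdown, 1 rose and 1 fell in wild type, and 1 rose and 8 fell in transgenic mice. Hmox1, the inducible heme oxygenase that breaks heme down, rose in both (log2 3.13 and 3.36, adjusted p = 0.0014 and 0.00122), from 11.9 to 34.1 FPKM without LPS to 160.1 to 207 with it. Among genes of heme synthesis Cpox fell by 1.53 (SE 0.26, adjusted p = 0.0055) and Alad by 1.41 (SE 0.32, adjusted p = 0.0176) in transgenic mice. Por, the P450 oxidoreductase, did not pass in either genotype (-0.42 and 0.93, adjusted p = 0.434 and 0.0954). Of 27 tested regulators of P450 genes, 0 rose and 2 fell in wild type, Hnf4a (-0.96, adjusted p = 0.0157) and Nr5a2 (-0.54, adjusted p = 0.0312). In transgenic mice 2 rose and 5 fell, the largest being Cux2 (2.60, adjusted p = 0.00483), Ppargc1a (2.07, adjusted p = 0.0291), Foxa2 (-1.59, adjusted p = 0.016) and Cebpa (-1.46, adjusted p = 0.0361). Nr1i2, which encodes PXR, stood between 24.8 and 46.8 FPKM in all libraries and did not pass; CAR (Nr1i3) shared its values with the neighbouring Apoa2 and was not read. Pericentral hepatocyte genes, the zone of Cyp2e1 and Cyp1a2, fell in 3 of 11 cases in wild type and 6 of 11 in transgenic mice. Periportal ones fell in 0 of 10 in both, with 1 rise (Sds) in transgenic mice. Of all features 5.41% and 10.5% fell. In wild type the medians were alike, -0.39 for pericentral genes (8 of 11 below 0) and -0.46 for periportal ones (9 of 10). In transgenic mice they were -0.91 (11 of 11 below 0) and 0.35 (2 of 10). Whether zonation had a part in the P450 changes was not tested.

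Sequence likeness within the subfamilies limits what single members can show. Of the 39 tested names with a GENCODE transcript, 24 shared over 10% of their 50-base windows with another gene and 6 shared none, among them Cyp2f2, Cyp3a13 and Cyp1b1. Windows were least private in Cyp2c40 (72.1%), Cyp2c69 (54.8%) and Cyp2c67 (52.8%); Cyp2e1, Cyp1a2, Cyp2u1 and Cyp2j5 shared 4.77%, 4.97%, 3.14% and 0.174%. In the 250 bases before the start, 53 promoters of 50 member names were searched on both strands beside all 32851 RefSeq promoters. TATAAA was present in 23 (43.4%), against 12.4% of all promoters, and TTNNGCAA, a C/EBP-type pattern, in 14 (26.4%), against 9.56%. The stricter TTGCGCAA, a special case of it, was in 0 and in 0.164% of all. The half-site AGGTCA was present in 16 (30.2%), against 14% of all, and the AhR core GCGTG in 9 (17%), against 28.2%. These are matches of letters, and neighbouring genes that arose by duplication share them.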

How the data were processed

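Per the labels' protocols, livers were frozen and ground, and strand-specific mRNA libraries were built from their RNA. The authors deposited 1 table of FPKM values with 8 library columns, all matched to a sample (0 unmatched). The submitters' processing notes name TopHat2 2.1.0, Bowtie2 2.2.6, Cufflinks, Cuffdiff 2.2.1 and the build mm10. For the annotation, trimming and scaling the sources used here give nothing. Assignment of reads to near-identical paralogs can therefore change single members, and names that share a locus carry the same value. The depth of each library is unknown, so no counting interval was given. Low values were searched for a step worth 1 read, and 11.03% to 63.19% of low ratios fell in a shared peak in 7 libraries compared with the eighth, so whole reads were not recovered and no count test was run.

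The 27 rows whose names had become dates were kept as features without a gene name. Identical rows were merged, and only features that reached 1 FPKM in 2 or more libraries were tested. The model was limma 3.58.1 (R 4.3.3) on log2(FPKM + 1), with 1 mean per group, moderated variances with a trend (4 residual and a median of 3.59 prior degrees of freedom), 6 contrasts, two-sided tests and Benjamini-Hochberg adjustment. The scripts were tested on simulated data. P-values measure the spread between these samples, which the series text calls biological replicates. Members and gene lists were chosen with earlier results of these data known. Members named were the highest of each subfamily and the 4 largest rises and 4 largest falls past the threshold in each contrast; all other members named were chosen after their values were seen. The alternatives tried were no filter, a pseudocount of 0.1, a filter of 5 FPKM, quantile normalisation, rescaling of libraries, robust moderation, only the groups compared, a replicate block, each library left out and, added later, both libraries with adrenal genes left out. Promoters came from RefSeq (GRCm38.p6), with 250 bases before each start, and positions and 50-base windows from GENCODE on GRCm38, the assembly that mm10 is built from; 56 of the 58 names had a position.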

Additional observations from a re-analysis of the deposited data

How the results depend on the processing

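Of 23 member changes that passed, 3 did so in every alternative tried (Cyp2c37 in wild type, Cyp1a2 and Cyp2u1 in transgenic mice) and 0 changed direction. In wild type 9 members passed with LPS, against 5 after quantile normalisation, 4 after rescaling, 18 without the 2 libraries that held adrenal genes (chosen after seeing the data), and 2 to 14 with 1 library left out. In transgenic mice 12 passed with LPS, and 2 to 18 with 1 library left out. For the genotype in untreated mice 1 passed, against 0 without the filter, 0 with the replicate block, 4 without both adrenal-gene libraries, and 0 to 2 with 1 library left out; with only the groups compared the 1 call was Cyp2c40 in place of Cyp2c38. Averaged over treatments 1 passed, against 0 without the filter, 0 with the block, 2 without both adrenal-gene libraries, and 0 to 8 with 1 left out. For the genotype under LPS 0 passed, against 2 without both adrenal-gene libraries (Cyp1a2 and Cyp2b10/Cyp2b9) and 0 to 8 with 1 left out. For the difference in LPS response 0 passed, against 3 without both adrenal-gene libraries (Cyp2b10/Cyp2b9, Cyp2d13 and Cyp3a13) and 0 to 4 with 1 left out; both upper limits came without replicate 2 of transgenic mice with LPS. Leaving out a library leaves a group with 1 sample that is assumed to vary like the others; the other causes were not tested. Replicate numbers were not taken as pairs in the main fit. Deviations of same-numbered libraries correlated at 0.043 to 0.459 over 6 pairs of groups, all above 0 and highest between the untreated groups. The replicate block gave 9 and 12 calls for LPS and 0 for the genotype under LPS and the difference in response. With it the Cyp2c38 genotype call was lost.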

Other observations

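P450 genes outside the member list also moved with LPS: of 27 tested, 3 rose and 9 fell in wild type (median log2 change -0.65), and 5 rose and 6 fell in transgenic mice (median -0.12). The 27 include 1 family 2 name with another ending, Cyp2d37-ps, which passed in neither genotype. Among the rows left out of the members, the adrenal P450 genes stood apart in 2 libraries. Cyp11a1, which starts steroid synthesis from cholesterol, stood at 3.24 FPKM in replicate 1 of untreated wild type and 1.53 in replicate 1 of transgenic mice with LPS, and at no more than 0.0364 in the other 6. Cyp21a1, a later step of the same pathway, stood at 3.78 and 2.49 FPKM in these 2 libraries.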
